A study of Mus musculus with 12 samples.

Results

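The manchette genes examined here were Ccdc42, Hook1, Meig1, Spag16, Rimbp3, Lrguk and Spef2, a list of 7 genes of the 7010 with a symbol in the counts. Every contig whose symbol matched one of these names was taken, which gave 15 contigs of 12114 in all. A contig is 1 reference sequence, here 1 annotated transcript, to which nanopore reads were assigned. All 15 passed the filter on low counts, so no member dropped out.

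The manchette is a temporary skirt of microtubules and actin that hangs from a ring around the nucleus while a spermatid elongates. It helps to shape the sperm head and serves as a track on which proteins travel towards the growing tail, and it is taken apart before the sperm cell is complete. In mice, loss of several of its proteins gives misshapen heads, short tails or detached heads, with infertile males.

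The study counted native poly(A) RNA molecules of sorted mouse spermatids by direct RNA sequencing, in which each read stands for 1 molecule. Round spermatids (RS) and elongated spermatids (ES) came from adult males that were either Tent5c wt/wt or Tent5c dcat/dcat. TENT5C is a poly(A) polymerase that does not belong to the canonical family, and the dcat allele encodes a form of it without catalytic activity, so read counts of the gene itself do not check the genotype label. Each of the 4 groups (RS wt/wt, RS dcat/dcat, ES wt/wt and ES dcat/dcat) had 3 libraries, each made from pooled RNA of 3 mice, so the spread between libraries is a spread between pools. The cells were sorted on DNA content and light scatter, and the labels name no other allele and no drug treatment in any group.

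Total counts ran from 337287 to 1359427 per library, and a count of 3, taken as the floor, was worth 1.77 to 10.6 CPM (counts per 1000000 reads) after scaling. CPM values were scaled by the trimmed mean of M values (TMM), which assumes that most contigs do not differ between libraries. The scaling factors were 1.25 to 1.31 in RS and 0.741 to 0.841 in ES. Spermatid markers followed the labels. Over all 5 round spermatid genes listed (Acrv1, Spaca1, Spesp1, Acr and Spink2), the summed level was 2060 to 2150 CPM in RS and 952 to 1050 CPM in ES. Over all 9 elongated spermatid genes it was 19900 to 42400 CPM in RS and 215000 to 284000 CPM in ES. Markers of Leydig cells, Sertoli cells and macrophages were also higher in ES, while those of meiotic cells were lower. The 6 counted genes of 10 Leydig cell markers summed to 78.6 to 143 CPM in RS and 278 to 853 CPM in ES, with Star, Lhcgr, Hsd3b1 and Hsd3b6 without a contig. The 6 counted genes of 12 Sertoli cell markers summed to 9.6 to 47.1 CPM in RS and 257 to 491 CPM in ES, and the defining genes Sox9, Wt1, Amh and Gata4 had no contig. The 2 counted genes of 6 macrophage markers summed to 4.15 to 10.6 CPM in RS and 92.6 to 170 CPM in ES, and Adgre1 and Csf1r had no contig. Meiotic genes, 8 counted of 12, summed to 965 to 1180 CPM in RS and 591 to 754 CPM in ES, with Dmc1 and Meiob without a contig. The part of these cells in the stage differences below was not tested.

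Direct RNA sequencing reads a molecule from its poly(A) tail inwards, so the 3′ end of the annotated contig is what a read has in hand first, and contigs that end alike are told apart only by bases further upstream. The last 30 bases of contigs from each member gene are printed for that reason. They come from the GENCODE vM21 transcripts on build GRCm38, 5′ to 3′ on the gene's own strand, with the poly(A) signal AATAAA, or failing that ATTAAA, in capitals.
Hook1-201 (chr4:96025384-96025413, +): tacgcaAATAAAgttctgcttctgattcag
Hook1-211 (chr4:96025362-96025391, +): tcAATAAAattgtgcaatgttttacgcaaa
Hook1-207 (chr4:96022313-96022342, +): ggtcccagctgcagcatctgactagtctgc
Rimbp3-201 (chr16:17213953-17213982, +): ccctcATTAAAatgttcatagaaaaagaat
Lrguk-201 (chr6:34134005-34134034, +): ttaaggAATAAAaaaaatatatttcctttt
Meig1-203 (chr2:3409047-3409076, -): tacacaacataaacacccaccttgaaacct
Meig1-201 (chr2:3409043-3409072, -): caacataaacacccaccttgaaaccttgaa
Meig1-202 (chr2:3409110-3409139, -): ttccatcgtgtaaatgtcattttacaaaac
Spag16-204 and Spag16-201 (chr1:70725103-70725132, +): tctcaAATAAAaattataactttttgttca
Ccdc42-203 (chr11:68597937-68597966, +): taaatgttataagaagttggctctgaaatt
Spef2-204 (chr15:9578193-9578222, -): ttgttgAATAAAtgttcataatcaaattga
Spef2-205 (chr15:9704309-9704338, -): atcatAATAAAttctttttcttaatgctaa

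Of the 15 member contigs, 7 held AATAAA in these last 30 bases, 1 (Rimbp3-201) held only ATTAAA and 7 held neither. Over the 11344 contigs with a sequence, 53.1% held AATAAA, 13.3% held ATTAAA only and 33.7% held neither. The members with neither were all 5 contigs of Meig1, Ccdc42-203 and Hook1-207. Whether the molecules themselves end at these annotated positions cannot be read from counts.

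The contigs of a gene overlapped to differing degrees, which bears on how far their counts can be told apart. Hook1-201, on chromosome 4 at 95967240 to 96025413, has 22 exons and a coding part of 2184 bases followed by a 3′ UTR of 3079 bases. Hook1-207 has 19 exons, shares 100% of its 2011 bases with Hook1-201 and stops 3071 bases before it, so it lacks nearly all of that UTR, and the annotation gives it no coding part. Hook1-211 has 2 exons at the 3′ end of the gene, shares 91% of its bases with Hook1-201 and is also annotated as noncoding. The 5 Meig1 contigs, on chromosome 2, hold a coding part of 264 bases each and differ mainly at their 5′ ends. The start of Meig1-201 lies 3519 bases upstream of that of Meig1-203, and those of Meig1-204, Meig1-205 and Meig1-202 lie 88, 110 and 548 bases downstream of it. The pair of Spag16 contigs ends at the same base on chromosome 1. Spag16-201 is the coding form with 17 exons, and Spag16-204 is a processed transcript with 8 exons that starts 124633 bases downstream. Spef2-205 ends 126116 bases upstream of Spef2-204, and Rimbp3, Lrguk and Ccdc42 were represented by 1 contig each.

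The comparison of ES with RS asked how the transcripts stood after elongation, when spermatids no longer transcribe. Since CPM values are shares of a library's reads, rose and fell here mean a change relative to the other transcripts. They do not give molecules per cell, and a relative rise does not show that new RNA was made. Hook1-201 rose 4.86-fold in wt/wt and 4.96-fold in dcat/dcat, and the Spag16 and Ccdc42 contigs fell 2.11-fold to 2.83-fold. The most counted Meig1 contig did not pass the test, while Meig1-201 rose 2.24-fold and 2.11-fold. Among the 15 contigs in wt/wt, 3 rose, 4 fell and 8 did not pass the test, beside 40.3% of all 11831 contigs tested that were called in either direction (23.8% higher and 16.5% lower). In dcat/dcat, 4 rose, 3 fell and 8 did not pass, beside 41.0% of all contigs (24.0% higher and 16.9% lower). The share of members called was thus close to the background in both genotypes. ES and RS libraries did not overlap for 7 members in wt/wt, beside 53.3% of all contigs, and for 8 in dcat/dcat, beside 50.9%. The median log2 difference was 0.24 over the members and -0.24 over all contigs in wt/wt. In dcat/dcat these medians were 0.19 and -0.18. Calls were made with edgeR's quasi-likelihood test at an adjusted p (q, Benjamini-Hochberg over all contigs) of 0.05 or less. Of the contigs called, 6 were called in both genotypes, 1 in wt/wt alone (Lrguk-201) and 1 in dcat/dcat alone (Hook1-211). In these bulk samples, fewer cells of a type and less RNA per cell cannot be told apart. With library totals in place of TMM the median of all contigs in wt/wt moved from -0.24 to -0.96 and the split of all calls from 2813 higher and 1953 lower to 1953 and 5411, so small stage differences have no settled sign.

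**Figure D1:**
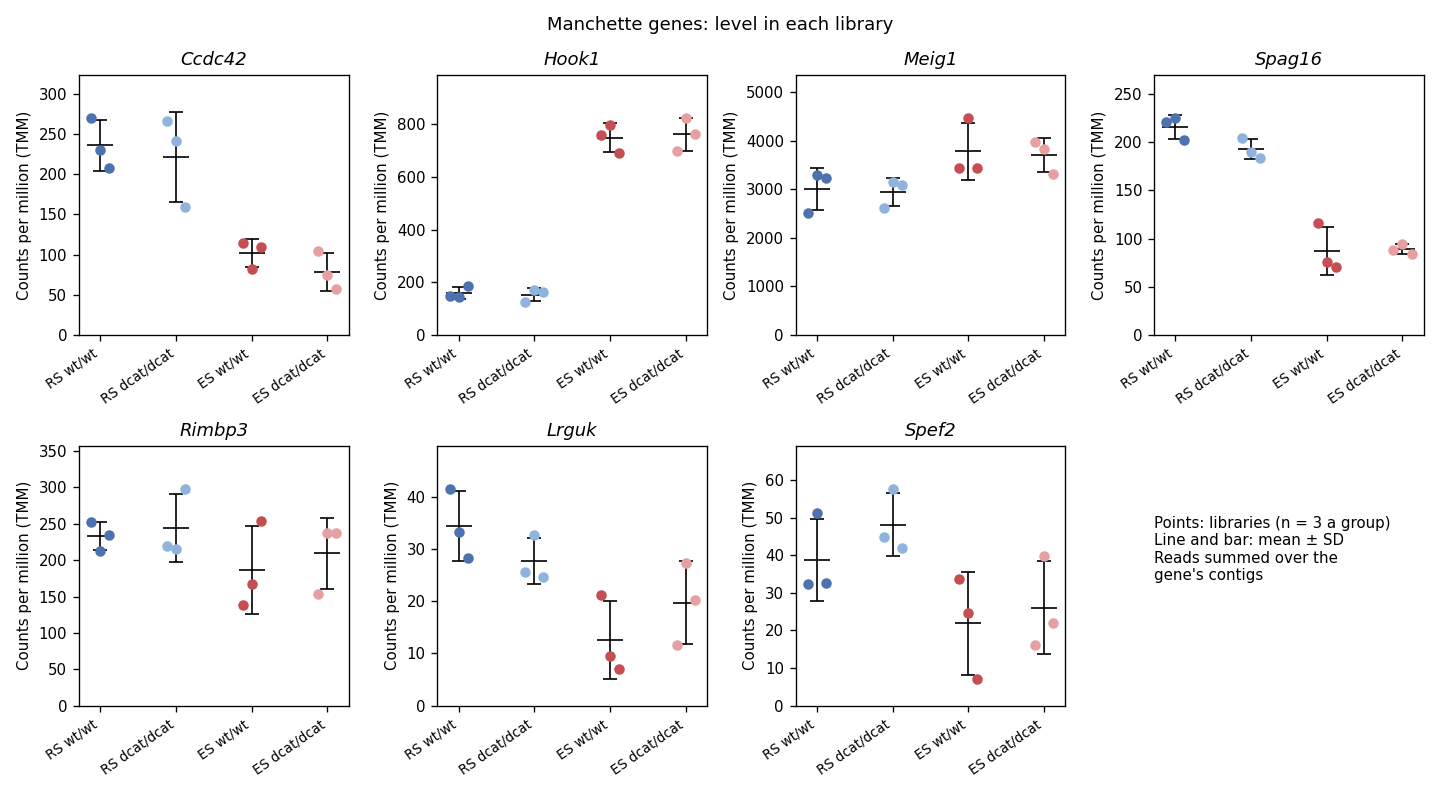
Level of each manchette gene in CPM (TMM-scaled, linear axis from 0), reads summed over the gene's contigs, with 1 point per library and the mean and SD of 3 libraries per group. Hook1 in ES lay at 691 to 823 CPM against 125 to 184 CPM in RS, Spag16 and Ccdc42 were lower in every ES library than in any RS library, and the 2 genotypes lay among each other within each stage.

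Hook1, Rimbp3 and Lrguk encode proteins of the manchette that are thought to link microtubules to cargo. HOOK1 binds microtubules, and the gene is the one mutated in the azh mouse, whose sperm heads are misshapen. Hook1-201, which carried 2697 of the 3113 Hook1 reads, stood at 131, 116 and 157 CPM in RS wt/wt, and at 109, 146 and 141 CPM in RS dcat/dcat. In ES it stood at 685, 723 and 558 CPM in wt/wt, and at 577, 717 and 667 CPM in dcat/dcat. The lowest ES library was above the highest RS library by a wide margin, and the means were 135 ± 20.8 and 655 ± 86.3 CPM in wt/wt (SD, n = 3). The log2 difference was 2.28 (SE 0.186, edgeR q = 1.7e-06) in wt/wt and 2.31 (SE 0.187, edgeR q = 3.1e-06) in dcat/dcat, or 4.86-fold and 4.96-fold.

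The shorter Hook1-207 rose too. Its wt/wt counts were 9, 10 and 8 in RS against 28, 12 and 20 in ES. The dcat/dcat counts were 7, 2 and 6 in RS against 43, 15 and 15 in ES. On the log2 scale it changed by 2.68 (SE 0.574, edgeR q = 0.00189) in wt/wt and by 3.34 (SE 0.609, edgeR q = 5.6e-04) in dcat/dcat, with low counts behind both. Hook1-211 had a log2 difference of 1.40 (SE 0.557, edgeR q = 0.057) in wt/wt, short of the threshold. It passed there with the replicate number as a block within genotype (edgeR q = 7.4e-04), though pairing by number is not settled in wt/wt. In dcat/dcat it rose by 1.79 (SE 0.548, edgeR q = 0.0173). Its libraries overlapped between the stages in both genotypes, and the dcat/dcat call was lost without RS dcat/dcat replicate 1 (q = 0.0579), ES dcat/dcat replicate 2 (q = 0.0604) or ES dcat/dcat replicate 3 (q = 0.0861).

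Since library scaling cancels within a library, ratios of reads give the Hook1 result in another form. There were 0.635 to 0.910 Hook1 reads per Spag16 read in RS wt/wt and 0.613 to 0.890 in RS dcat/dcat. In ES the ratio was 6.53 to 10.5 in wt/wt and 7.92 to 9.06 in dcat/dcat. Against Ccdc42 it was 0.470 to 1.03 in the 6 RS libraries and 6.32 to 13.3 in the 6 ES libraries, and against Rimbp3 it was 0.550 to 0.787 and 2.72 to 5.44. No ES library overlapped an RS library in any of these ratios, which show an unequal change of the paired genes and not which one moved.

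Hook1-201 held 85.7% ± 2.83 (SD, n = 6) of Hook1 reads in RS and 86.4% ± 4.01 (SD, n = 6) in ES. The difference of 0.673 percentage points did not pass an exact two-sided permutation test of the stage labels within genotype (p = 0.725, adjusted over 8 tests 0.955). Its share lay between 80.6% and 90.5% over all 12 libraries. The mean share of Hook1-211 was 9.88% ± 2.92 (SD, n = 6) in RS and 6.46% ± 3.26 (SD, n = 6) in ES, and that of Hook1-207 was 4.42% ± 2.52 (SD, n = 6) and 7.17% ± 4.49 (SD, n = 6). These moved in opposite directions with ranges that overlapped between stages, and neither was tested.

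RIMBP3 binds HOOK1 at the manchette, and spermatids without it have deformed heads. Rimbp3-201, a transcript of a single exon on chromosome 16, stood at 253, 213 and 235 CPM in RS wt/wt and at 139, 167 and 254 CPM in ES wt/wt. In dcat/dcat it stood at 219, 215 and 298 CPM in RS and at 153, 237 and 238 CPM in ES. The stages overlapped in both genotypes. The log2 difference was -0.34 (95% interval -0.86 to 0.17, edgeR q = 0.272) in wt/wt and -0.22 (95% interval -0.73 to 0.29, edgeR q = 0.477) in dcat/dcat, while scaling by library totals gave calls at -1.04 and -0.89, and the limit to contigs with at least 10 reads in every library gave one at -0.66 in wt/wt.

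LRGUK, a protein with leucine-rich repeats and a guanylate kinase-like domain, is needed for the manchette and for tail growth, and binds HOOK2 and RIMBP3. Lrguk had the fewest reads of the 7 genes, 250 over the 12 libraries. Lrguk-201 was counted 50, 28 and 48 times in RS wt/wt and 10, 5 and 2 times in ES wt/wt, which is 41.5, 33.4 and 28.4 CPM against 21.1, 9.51 and 7.06 CPM. The groups did not overlap, and the contig fell by 1.38 on the log2 scale (SE 0.399, edgeR q = 0.0128). That call was lost without ES wt/wt replicate 2 (q = 0.107) or replicate 3 (q = 0.0527), and replicate 3, with 2 reads, was below the floor of 3. In dcat/dcat the levels were 25.6, 32.8 and 24.7 CPM in RS and 11.6, 27.5 and 20.3 CPM in ES, which overlapped, with a log2 difference of -0.48 (SE 0.375, edgeR q = 0.324) that passed at -1.14 under library totals. The stage difference was not shown to depend on genotype, since the interaction of 0.90 (SE 0.556) had an unadjusted edgeR p of 0.128 and q = 0.99999.

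**Figure D2:**
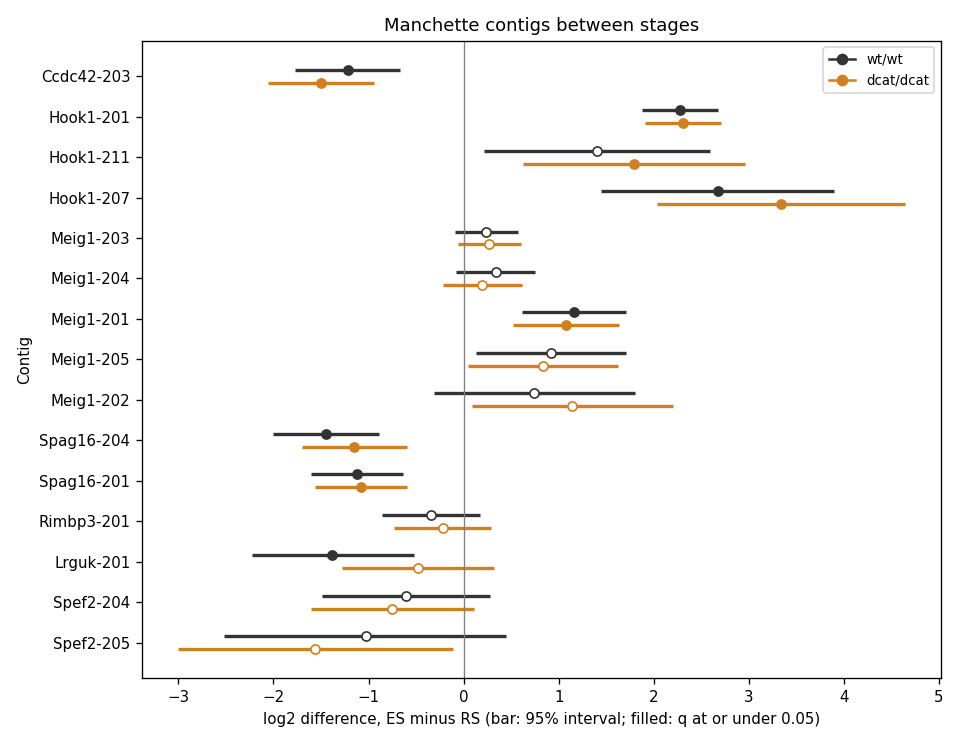
log2 difference between ES and RS for the 15 manchette contigs in wt/wt and dcat/dcat, with bars for the 95% interval and filled points for edgeR q at or under 0.05. The 3 Hook1 contigs lay to the right, from 1.40 to 3.34, the Ccdc42 and Spag16 contigs to the left, from -1.5 to -1.08, and the Meig1 contigs between 0.19 and 1.16, of which only Meig1-201 (1.16 and 1.08) passed.

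MEIG1 and SPAG16 belong to a complex carried along the manchette. MEIG1, a small protein named for its expression in meiosis, is needed to bring SPAG16 to the manchette, and SPAG16 is a WD-repeat protein that also sits in the central apparatus of the axoneme. Meig1-203, with 23762 of the 30060 Meig1 reads, stood at 2060, 2690 and 2580 CPM in RS wt/wt and at 2810, 3300 and 2550 CPM in ES wt/wt. In dcat/dcat it stood at 2090, 2580 and 2430 CPM in RS and at 3220, 2810 and 2530 CPM in ES. The stages overlapped, with log2 differences of 0.24 (95% interval -0.09 to 0.57, edgeR q = 0.225) in wt/wt and 0.27 (95% interval -0.06 to 0.60, edgeR q = 0.177) in dcat/dcat. The sign of both turned under library totals (-0.47 and -0.41, both called) and with contigs limited to at least 10 reads in every library (-0.08 and -0.01), so no direction is given for Meig1-203.

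Meig1-201, the contig with the upstream start, stood at 108, 147 and 140 CPM in RS wt/wt against 192, 379 and 311 CPM in ES wt/wt. In dcat/dcat it was 114, 121 and 155 CPM in RS against 209, 350 and 268 CPM in ES. Each ES library was above each RS library, and the contig rose by 1.16 (SE 0.259, edgeR q = 0.00247) in wt/wt and 1.08 (SE 0.259, edgeR q = 0.00403) in dcat/dcat. Under library totals it did not pass (0.46 and 0.41). Meig1-205 had log2 differences of 0.92 (edgeR q = 0.0586) and 0.84 (edgeR q = 0.0812), Meig1-202 of 0.74 (edgeR q = 0.245) and 1.14 (edgeR q = 0.0765), and Meig1-204 of 0.34 and 0.19, which turned to -0.37 and -0.48 under library totals. With the replicate number as a block within genotype, Meig1-205 and Meig1-202 passed in dcat/dcat (edgeR q = 0.00689 and 0.0094). Meig1-205 also passed in wt/wt (edgeR q = 0.00469), where pairing by number is not settled.

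The split of Meig1 reads among the contigs does not depend on scaling. Meig1-203 held 80.6% ± 1.28 (SD, n = 6) of the reads in RS and 76.5% ± 3.78 (SD, n = 6) in ES, a difference of -4.10 percentage points (exact two-sided permutation p = 0.06, adjusted over 8 tests 0.48). Meig1-201 held 3.82% to 5.01% in the 6 RS libraries and 5.23% to 9.09% in the 6 ES libraries, with means of 4.38% and 7.57%. The 2 ranges did not meet, and no test is given because this contig was picked after its values were seen. Within ES, replicate 1 had the lowest share of Meig1-201 in both genotypes, 5.58% in wt/wt and 5.23% in dcat/dcat, while the other 4 libraries were at 8.07% to 9.09%. The same 2 libraries had the lowest ES shares of Meig1-205, 2.21% each.

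**Figure D3:**
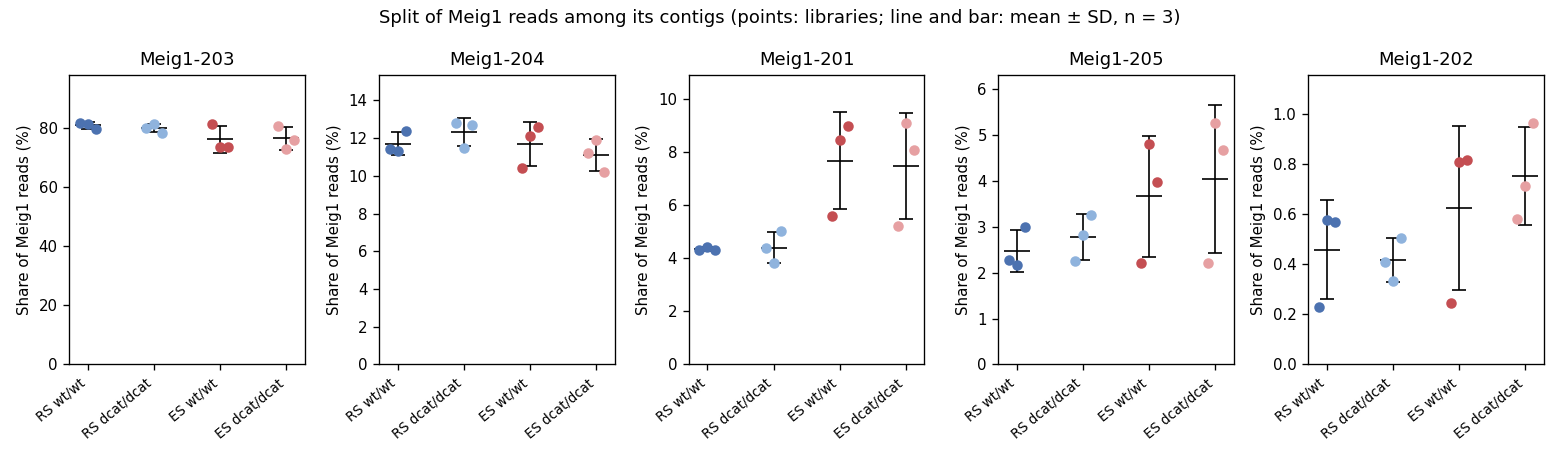
Share of each library's Meig1 reads on each of the 5 Meig1 contigs, in percent on axes from 0, with 1 point per library and the mean and SD of 3 libraries per group. The ES libraries lay at 5.23% to 9.09% for Meig1-201, above the 3.82% to 5.01% of the RS libraries, while the ranges of Meig1-203, Meig1-204, Meig1-205 and Meig1-202 overlapped between stages.

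Summed over its contigs, Meig1 lay on the edge of the threshold, with a log2 difference of 0.44 in both genotypes (edgeR q = 0.0468 in wt/wt and 0.0471 in dcat/dcat). Leaving out 1 library ended the call in 2 of 6 cases in wt/wt (RS replicate 1 at q = 0.165 and ES replicate 2 at q = 0.182) and in 5 of 6 in dcat/dcat (all but ES replicate 3, with q from 0.0566 to 0.19). Under library totals the sum turned to -0.38 and -0.34, so here too no direction is given.

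Spag16 fell on both contigs. Spag16-204, the processed transcript, had 819 reads and Spag16-201, the coding one, 780. Spag16-204 stood at 101, 118 and 118 CPM in RS wt/wt and at 59.2, 30.4 and 31.8 CPM in ES wt/wt, and at 102, 99.7 and 93.9 CPM against 41.7, 54.9 and 37.1 CPM in dcat/dcat. It fell by 1.45 on the log2 scale (SE 0.261, edgeR q = 5.1e-04) in wt/wt and by 1.15 (SE 0.258, edgeR q = 0.00245) in dcat/dcat. Spag16-201 stood at 120, 107 and 85.2 CPM in RS wt/wt and at 57.0, 45.7 and 38.8 CPM in ES wt/wt, and at 103, 90.5 and 90.6 CPM against 46.4, 39.9 and 47.3 CPM in dcat/dcat. It fell by 1.12 (SE 0.226, edgeR q = 0.00122) and by 1.08 (SE 0.226, edgeR q = 0.00159). No ES library reached the lowest RS library for either contig. The share of reads on Spag16-204 was 51.5% ± 4.09 in RS and 47.5% ± 6.24 in ES (SD, n = 6 each), a difference of -3.96 points that did not pass (exact permutation p = 0.235, adjusted 0.627).

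CCDC42 and SPEF2 act in building the tail. CCDC42 is a coiled-coil protein found at the manchette and the connecting piece, which joins head and tail, and it binds ODF1 and ODF2. Ccdc42-203 stood at 271, 230 and 208 CPM in RS wt/wt and at 114, 81.8 and 109 CPM in ES wt/wt. In dcat/dcat the levels were 266, 241 and 159 CPM in RS and 104, 74.9 and 57.4 CPM in ES. The stages did not overlap in either genotype. Ccdc42-203 fell by 1.22 (SE 0.256, edgeR q = 0.0016) in wt/wt and by 1.5 (SE 0.26, edgeR q = 3.8e-04) in dcat/dcat, that is 2.33-fold and 2.83-fold, and these calls held without any 1 library.

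SPEF2 is a large protein of the sperm tail that also lies on the manchette and binds IFT20, a protein of intraflagellar transport. Spef2-204 stood at 22.4, 44.1 and 25.4 CPM in RS wt/wt, with 27, 37 and 43 reads, and at 25.4, 22.8 and 7.06 CPM in ES wt/wt, with 12, 12 and 2 reads. In dcat/dcat it stood at 36.3, 43.3 and 32.1 CPM in RS and at 13.9, 32.5 and 20.3 CPM in ES. The stages overlapped, with log2 differences of -0.61 (95% interval -1.49 to 0.28, edgeR q = 0.258) and -0.75 (95% interval -1.61 to 0.11, edgeR q = 0.148). Spef2-205 had 12, 6 and 12 reads in RS wt/wt and 4, 1 and 0 in ES wt/wt, and 8, 11 and 12 against 1, 3 and 1 in dcat/dcat, so that only 1 ES library was above the floor of 3. Its differences of -1.03 (edgeR q = 0.249) and -1.56 (edgeR q = 0.0781) did not pass. In libraries with at least 10 Spef2 reads, Spef2-204 held 77.6% ± 5.67 (SD, n = 6) of them in RS and 85.2% ± 8.58 (SD, n = 4) in ES, a difference of 7.57 percentage points (exact permutation p = 0.15, adjusted 0.6). Under library totals both Spef2 contigs were called lower in both genotypes.

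The reads were also summed over the contigs of each gene. In wt/wt, Hook1 rose 5.08-fold and Meig1 was called at 1.35-fold, Spag16, Ccdc42 and Lrguk fell 2.25-fold, 2.17-fold and 2.39-fold, and Rimbp3 and Spef2 did not pass, which made 5 genes called of 7 beside 49% of 7706 sums over all genes. In dcat/dcat, 4 of 7 were called beside 49.2%, namely Hook1 (5.37-fold higher), Meig1 (1.35-fold), Spag16 (2-fold lower) and Ccdc42 (2.62-fold lower).

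The comparison of dcat/dcat with wt/wt asked whether the catalytic activity of TENT5C bears on the amount of these transcripts. None of the 15 contigs passed in RS or in ES. The background was also 0%, as edgeR called 0 of 11831 contigs in either stage, with 0.828% in RS and 3.01% in ES at an unadjusted p under 0.05, and DESeq2 called 0 of all contigs in RS, 1 in ES and 0 of the 15 members. With the replicate number as a block within stage, edgeR called 4 contigs higher and 1 lower in RS and 7 higher and 5 lower in ES, none of them a member, and 487 and 1016 contigs had an unadjusted p under 0.05, against 98 and 356 without the block. Without the block, none of the 15 had an unadjusted edgeR p under 0.05, the smallest being 0.337 in RS and 0.198 in ES. That fit leaves any pairing by replicate number unused, and no unadjusted p of a member is given with the block. These p-values therefore do not show that the genotypes are equal. No member had groups that did not overlap, beside 5.31% of all contigs in RS and 7.66% in ES. In RS the log2 differences lay between -0.54 and 0.41 (median -0.04), and in ES between -0.37 and 0.58 (median 0.05).

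The 95% intervals below come from the fit without a replicate block and bound the differences that this fit leaves possible. No interval is given with the block, although the replicate numbers were read as pairing between genotypes. For Hook1-201 the log2 difference in ES was -0.01 with a 95% interval of -0.38 to 0.37, and for Meig1-203 it was -0.02 with an interval of -0.35 to 0.31. For Ccdc42-203 it was -0.37 with an interval of -0.96 to 0.22, from 114, 81.8 and 109 CPM in wt/wt against 104, 74.9 and 57.4 CPM in dcat/dcat. For Lrguk-201 it was 0.58 with an interval of -0.39 to 1.55, and for Spag16-204, Rimbp3-201 and Spef2-204 it was 0.11, 0.18 and 0.16, with upper ends of 0.72, 0.71 and 1.15. In RS the same contigs lay between -0.32 for Lrguk-201 (interval -1 to 0.37) and 0.30 for Spef2-204 (interval -0.45 to 1.05). The interaction of stage and genotype called 0 of 15 members and 0 of 11831 contigs with edgeR, with 0 members and 1.44% of all contigs at an unadjusted p under 0.05, and 0 members with DESeq2. None of the 4 genes with several contigs showed a genotype difference in the share of its leading contig (exact permutation p from 0.615 to 0.955, differences of -0.322 to 1.75 percentage points).

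**Figure D4:**
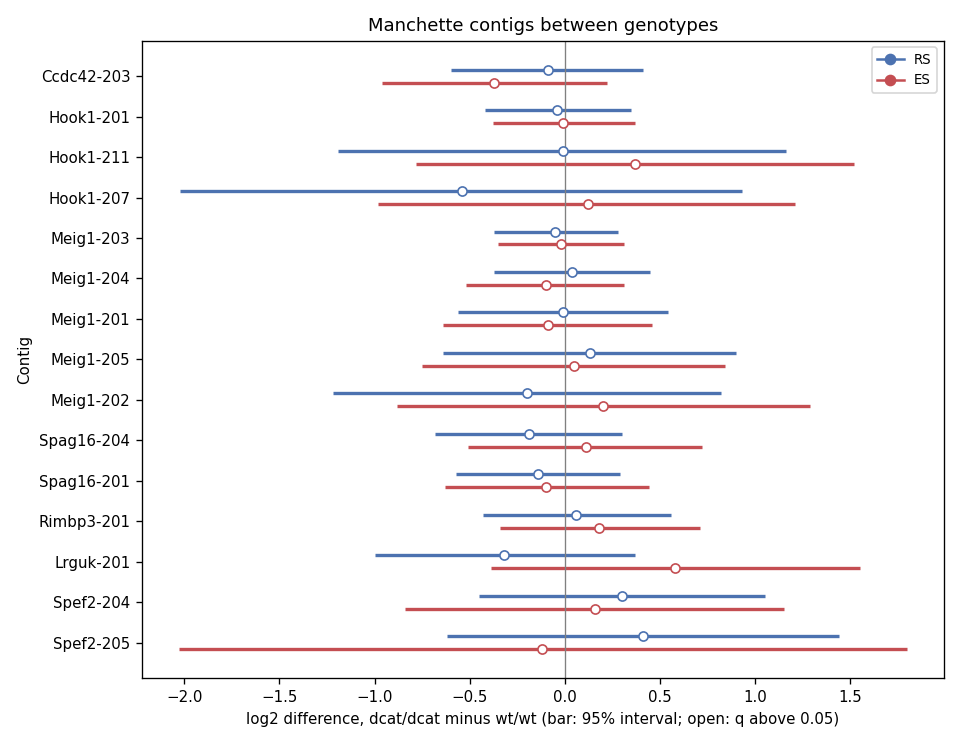
log2 difference between dcat/dcat and wt/wt for the 15 manchette contigs in RS and in ES, with bars for the 95% interval, from the fit without a replicate block. All points are open because none passed, and they lie between -0.54 and 0.58, with the widest intervals for the low-count contigs Spef2-205 and Hook1-207.

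Beyond the members, 25 other genes whose proteins lie at the manchette, bind a member or travel with it were listed, of which 24 had contigs, 48 in all. Between stages in wt/wt, 22 of the 48 rose, 10 fell and 16 did not pass, and in dcat/dcat 22 rose, 9 fell and 17 did not pass. Over all contigs, 23.8% rose in wt/wt and 16.5% fell, and for dcat/dcat these shares were 24.0% and 16.9%. The median log2 difference of the listed contigs was 0.46 in wt/wt and 0.40 in dcat/dcat, beside -0.24 and -0.18 over all contigs. Contigs of 1 gene share sequence, so that its reads may be assigned among them, and Odf2 alone had 7 contigs. These counts are therefore not counts of independent genes. Between genotypes 0 of 48 passed with edgeR in either stage, with 0 in RS and 3 in ES at an unadjusted p under 0.05 (0.828% and 3.01% of all contigs), and 0 with DESeq2.

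The 3 contigs that rose with the smallest q in wt/wt were 1 of Odf2, which encodes a main protein of the outer dense fibres (2.08, SE 0.161, edgeR q = 1.5e-06), that of Odf1, a second fibre protein that is also on the list of elongated spermatid markers (2.18, SE 0.181, edgeR q = 1.7e-06), and 1 of Wdr64 (2.99, SE 0.279, edgeR q = 2.4e-06). The 3 that fell with the smallest q were Spag6l, which encodes a binding partner of SPAG16 in the central apparatus (-1.17, SE 0.225, edgeR q = 8.1e-04), 1 contig of Hook2 (-1.62, SE 0.312, edgeR q = 8.3e-04) and 1 of Wdr62 (-1.21, SE 0.311, edgeR q = 0.00632). That Wdr62 contig did not pass in dcat/dcat (-0.29, edgeR q = 0.431). The interaction of stage and genotype called 0 of the 48 listed contigs, so this fall was not shown to depend on genotype. Neither other Wdr62 contig passed in wt/wt (-0.1, edgeR q = 0.802, and -0.72, edgeR q = 0.163).

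Of the members, 4 were set beside listed partners or relatives in wt/wt. Ccdc42 fell while Odf1 and the leading Odf2 contig (1.61, edgeR q = 3.4e-04), whose proteins CCDC42 binds, rose. Spag16 and Spag6l both fell. Dnali1, which encodes a dynein light chain, had a log2 difference of 0.20 (SE 0.185, edgeR q = 0.413). Of the HOOK family, Hook1 rose, the leading Hook2 contig fell by 1.02 (edgeR q = 0.0331) and Hook3 rose by 3.18 from low counts (155 reads over the 12 libraries, edgeR q = 2.3e-05). Ift20 fell by 0.96 (edgeR q = 0.0284) in wt/wt and had a log2 difference of -0.14 (edgeR q = 0.743) in dcat/dcat, a contrast between genotypes that did not pass the interaction test, and Spef2 did not pass in either.

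**Figure D5:**
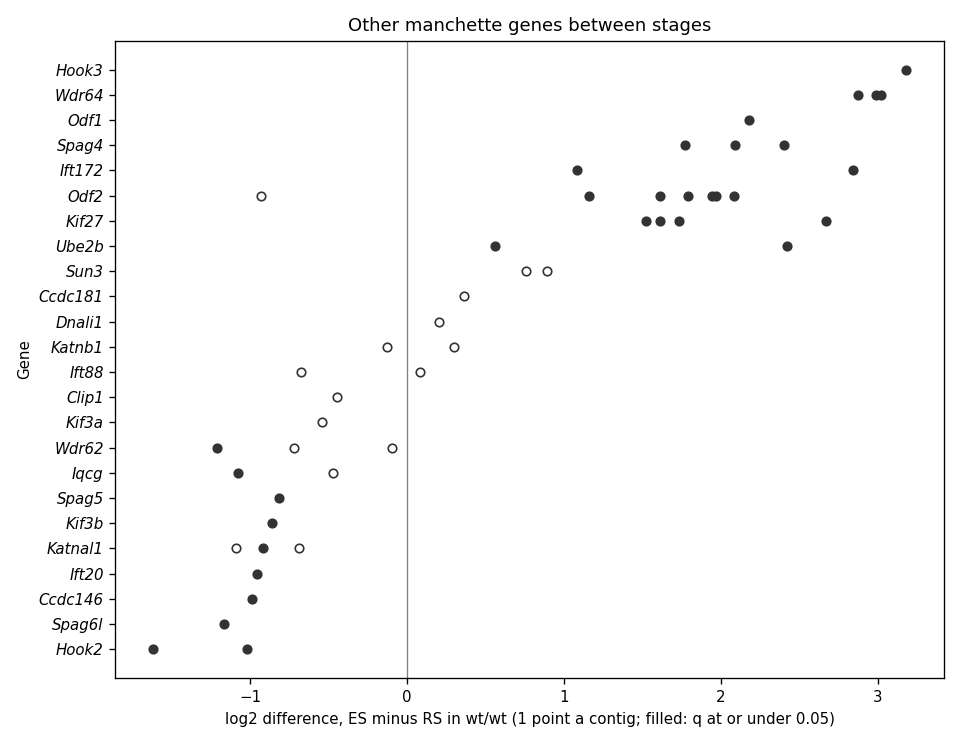
log2 difference between ES and RS in wt/wt for 48 contigs of 24 other manchette genes, 1 point per contig and 1 row per gene, ordered by the gene's median, with filled points for edgeR q at or under 0.05. Hook3, Wdr64, Odf1 and most Odf2 contigs lay high and Hook2 and Spag6l low, while Dnali1 stayed near 0. The exception was 1 Odf2 contig at -0.93, which did not pass (edgeR q = 0.0793).

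As a description of pattern, the contig of another gene whose log2 CPM followed each leading contig most closely over the 12 libraries was found among 3564 to 3568 contigs of other genes with at least 10 reads in every library. For Hook1-201 this was Timp2 (Pearson r = 0.995), for Ccdc42-203 Pde6d (0.992), for Spag16-204 Gtf2a1l (0.973), for Meig1-203 Rps27rt (0.922), for Lrguk-201 Usp15 (0.921), for Rimbp3-201 Dnajc27 (0.907) and for Spef2-204 Uqcrh (0.904). The 12 points of each pair share libraries and the same split by stage.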

How the data were processed

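Libraries were grouped by the sample labels alone. The authors aligned nanopore direct RNA reads with minimap2 (2.20-r1061 per the submitters' processing notes) to GENCODE transcripts of GRCm38 and kept reads with a passing poly(A) tail call. The deposited counts are whole-number, unnormalized reads per contig for 12114 contigs. The deposited tables of the authors' DESeq2 comparisons (log2 fold changes and adjusted p-values) were used only to pair contigs with gene symbols. No library pair held identical values. Assignment of reads among overlapping contigs and the tail filter can change counts, and neither can be undone here.

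Counts were fitted in edgeR 4.0.16 (R 4.3.3, limma 3.58.1) by the quasi-likelihood test on all 12 libraries with TMM scaling and 1 mean per group, for the 11831 contigs that reached 10 reads in 2 or more libraries of any group. A contig was called at a Benjamini-Hochberg q of 0.05 or less over all contigs. Each SE is the absolute log2 difference over the root of F, and 95% intervals use the moderated degrees of freedom. The same model was fitted to reads summed by gene symbol. The share of a gene's reads on its most counted contig was compared by exact two-sided permutation, in libraries with at least 10 reads of the gene. The scripts were tested on simulated data. Floors and intervals cover counting error and library spread only.

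Alternatives were RLE scaling, library totals, DESeq2 1.42.0, other filters, only the groups compared, robust moderation, a replicate block and each library left out. The labels number replicates alike in every group without saying what the numbers mark. Deviations of same-numbered libraries over 3719 contigs correlated at 0.4 to 0.578 between stages in dcat/dcat, 0.54 to 0.798 between genotypes in RS and 0.126 to 0.69 in ES, but at 0.456, 0.496 and -0.246 between stages in wt/wt. Same-numbered libraries correlated positively throughout the first 3 comparisons, and the numbers were read as pairing there. The main fit still had no block, which was run only as an alternative. Within ES, dcat/dcat replicate 3 correlated more with wt/wt replicate 2 (0.375) than with wt/wt replicate 3 (0.126), so pairing there is less clear. Between stages in wt/wt, pairing is not settled. The study's reporting summary says that RS and ES were sorted from the same mice. It also says that a mouse of each genotype was part of every sorting session. The labels do not tie a number to a pool or a session.

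Every contig of the members was described, the most counted one in full. From the list of other manchette genes, the 3 called contigs with the smallest q in each direction in wt/wt were named, with the leading contigs of genes known to bind a member. Hook3 was named after its values were seen, and 1 listed gene is not reported here. The members and lists were chosen with earlier results of these data known. Positions came from GENCODE vM21 on GRCm38, a later release than the authors' on the same build.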

Additional observations from a re-analysis of the deposited data

How the results depend on the processing

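Between stages, the number of member contigs called in wt/wt was 7 of 15 and ran from 5 to 10 under the alternatives. The 5 was of 8 contigs tested with at least 10 reads in every library, and also of 7 genes when counts were summed by gene. With 1 library left out, the number ran from 6 to 10 of 15. In dcat/dcat it was 7, with 11 under library totals, 4 with at least 10 reads in every library (8 contigs tested), 4 of 7 when counts were summed by gene, and 6 to 8 with 1 library left out. The gene sums called were 5 in wt/wt (3 without ES wt/wt replicate 2, 3 to 5 over all libraries left out) and 4 in dcat/dcat (7 under library totals, 3 to 4 with 1 library left out). The replicate block gave 9 member contigs in wt/wt, where 1 of 3 same-numbered pairs correlated below 0 and not every library correlated best with its own number, so that pairing there is not settled, and 10 in dcat/dcat, or 9 with the block within genotype, which there added Meig1-205 and Meig1-202 alone. Between genotypes and in the interaction, no member contig was called under any alternative run. Not all 15 were tested in each, since 8 were tested with at least 10 reads in every library. Between genotypes, 14 were tested with only the groups compared.

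Contigs near the threshold crossed it. In wt/wt, Hook1-211 and Meig1-205 passed under RLE scaling (q = 0.0474 each), DESeq2 (0.0374 and 0.0464), the replicate block (2.7e-04 and 0.00118), and without RS replicate 3 (0.0395 and 0.0473) or ES replicate 1 (0.00891 and 0.00827). Hook1-211 also passed with only the groups compared (0.0491), and Meig1-202 without ES replicate 1 (0.0429). In dcat/dcat, Hook1-211 did not pass under library totals (0.0933). Meig1-205 passed there without ES replicate 1 (0.0264), Meig1-202 with only the groups compared (0.0248), Spef2-204 with the replicate block (0.0446) and Spef2-205 without ES replicate 2 (0.0445). The Spef2 sum passed with the block (0.0252) and without ES replicate 2 (0.0298), and the Lrguk sum in wt/wt was lost without ES replicate 2 (0.0821) or 3 (0.0539).

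The values that turned sign were Meig1-203 (-0.47 in wt/wt and -0.41 in dcat/dcat under library totals, -0.08 and -0.01 with at least 10 reads in every library), Meig1-204 (-0.37 and -0.48 under library totals, -0.09 in dcat/dcat with at least 10 reads in every library) and the Meig1 sum (-0.38 and -0.34 under library totals). Between genotypes in ES, Hook1-201 turned to 0.04 and Meig1-203 to 0.01 under library totals, and to 0.04 and 0.02 with at least 10 reads in every library. The cause was not tested.

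With 1 library left out, genotype differences that turned sign ran in RS from -0.24 to 0.12 for Ccdc42-203, -0.13 to 0.09 for Hook1-201, -0.16 to 0.04 for Meig1-203 and -0.10 to 0.15 for Rimbp3-201. In ES they ran from -0.13 to 0.08 for Hook1-201, -0.12 to 0.09 for Meig1-203, -0.11 to 0.49 for Spag16-204 and -0.17 to 0.38 for Spef2-204. The Rimbp3 sum ran from -0.22 to 0.09 between stages in dcat/dcat. Shares of the leading contig, in percentage points with exact permutation p-values, ran between stages from -0.30 to 1.83 for Hook1-201, -5.11 to -3.40 for Meig1-203 (p = 0.02 without ES replicate 1 of either genotype), -6.03 to -2.45 for Spag16-204 (p = 0.045 without ES dcat/dcat replicate 2) and 5.21 to 11 for Spef2-204 (p = 0.05 without ES wt/wt replicate 1). Between genotypes they ran from -1.14 to 0.828 for Hook1-201, -1.33 to 0.751 for Meig1-203, 0.0254 to 3.63 for Spag16-204 and -1.74 to 4.08 for Spef2-204.

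Depth limits Lrguk and Spef2 most, with 250 and 341 reads over the 12 libraries.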
